A study of Mus musculus with 55 samples.

Results

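Islets of βEedKO mice, which lack Eed in β cells, were compared with islets of wild-type mice at 8 weeks of age. The comparison rests on 6 bulk RNA-seq libraries, 3 of each genotype, chosen by their labels from the 16 bulk libraries among the 55 samples of the series. Both groups were whole islets of C57B6/J males. The knockout (Eed -/-) carried homozygous floxed alleles (Eed flox/flox) and RIP-cre, Tg(Ins2-cre)23Herr, in which an insulin promoter drives Cre, so recombination is directed to β cells and the other islet cells keep the gene. The sources used here do not say whether the wild-type animals carried the transgene. Each library held islets of 1 to 2 animals, which were picked by hand after collagenase digestion and kept in culture medium. The knockout libraries bear the replicate numbers 1, 4 and 5, and the wild-type libraries 1, 3 and 4. Library values below are CPM (the reads of a gene divided by the scaled size of its library, a unit that allows libraries of different depth to be compared), given in this order.

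Eed is a core subunit of Polycomb repressive complex 2 (PRC2), which holds genes silent through trimethylation of histone H3 at lysine 27. In a differentiated cell such as the β cell, the marked genes are largely developmental regulators and genes of other tissues. Many of their promoters carry the active mark H3K4me3 as well and are then called bivalent. A second complex, PRC1, recognises the mark, and its subunits include the CBX proteins.

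The libraries held 11825016 to 19078305 counted reads, and insulin transcripts (Ins1 and Ins2 together) took 11.9% to 18.9% of them, so every library was rich in β cell RNA. Both replicates 1, of either genotype, stood apart from the other 4. Interferon-induced genes, normally switched on by viral or interferon signalling, summed to 554 CPM in knockout replicate 1 and 618 CPM in wild-type replicate 1, against 7472 to 11703 CPM in the others. Ifit1, one of them, had 4.26, 1985 and 2245 CPM in the knockout and 6.61, 1388 and 1422 CPM in wild type. Immediate-early genes such as Fos ran the other way, with sums of 6444 and 6809 CPM in replicates 1 against 1056 to 1478 CPM. Genes of the unfolded protein response were lower in replicates 1, at 3613 and 4196 CPM against 9277 to 12158 CPM. Acinar genes, which encode the digestive enzymes of the exocrine pancreas, summed to 304398 CPM in wild-type replicate 1 and to between 37674 and 85441 CPM in the other 5 libraries.

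**Figure D1:**
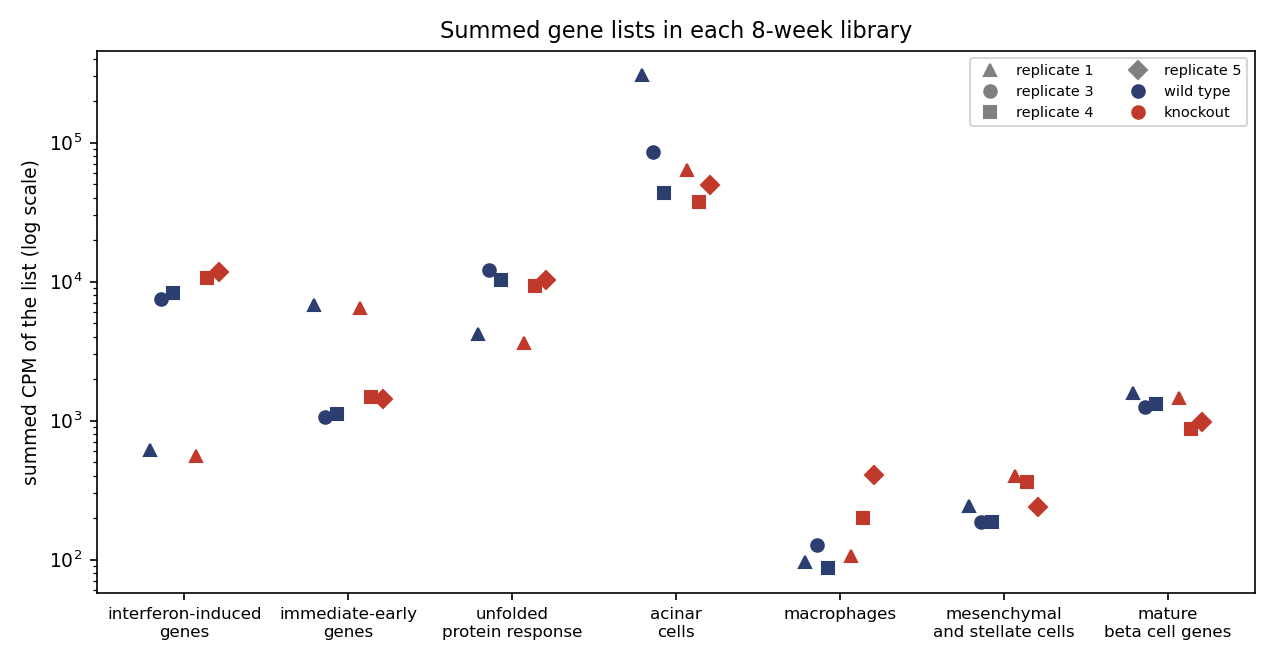
Summed CPM (log scale) of 7 gene lists in each of the 6 libraries. Blue symbols are wild type, red symbols knockout, and the shape gives the replicate number. Replicates 1 of both genotypes (triangles) sit at 618 and 554 CPM for interferon-induced genes, below the other 4 libraries.

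Eed itself, the targeted gene (chromosome 7 on GRCm38), was measured first. It had 14.7, 13.6 and 15.1 CPM in the knockout and 23.2, 33.8 and 32.0 CPM in wild type. All knockout libraries lay below all wild-type libraries, at 0.488 of the wild-type mean. The log2 fold change was -1.04 ± 0.22 (SE), with an adjusted p of 0.0881 in edgeR's quasi-likelihood test, so Eed did not pass the threshold of 0.05. Heterozygous islets of 8 weeks had 17.2, 17.2 and 20.5 CPM of Eed, between the knockout and the wild-type libraries. Whole islets also hold cells outside the reach of Cre, and in bulk RNA fewer cells of a type cannot be told apart from less RNA per cell. The other core subunits had overlapping groups. The fitted log2 difference was -0.36 ± 0.22 for Suz12 (adjusted p = 0.78 by edgeR), and -0.31 and -0.21 for Ezh1 and Ezh2, the catalytic subunits. Of the 11 PRC2 subunits and cofactors listed 0 were called by edgeR (Epop, a cofactor outside the list, is described below), and Eed was the 1 with an unadjusted p under 0.05.

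Of 18685 genes tested, 80 were higher and 1 was lower in the knockout at an adjusted p under 0.05. These are 0.428% and 0.00535% of the genes tested. Without adjustment 1093 genes (5.85%) were higher and 377 (2.02%) lower at p under 0.05. In all 80 of the called higher genes every knockout library lay above every wild-type library, a pattern shown by 6.63% of the genes tested. Every knockout library also lay above all 3 heterozygous libraries of the same age for 80 of the 80, against 12.7% of the genes tested. Most of these genes were close to silent in wild type. The wild-type mean was under 1 CPM for 45, from 1 to 10 CPM for 31 and 10 CPM or more for 4. The median of the log2 fold changes was 3.53, and it did not move when the 4 genes without a wild-type read were set to their lower bounds. Of the 80, 75 are annotated as protein coding.

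**Figure D2:**
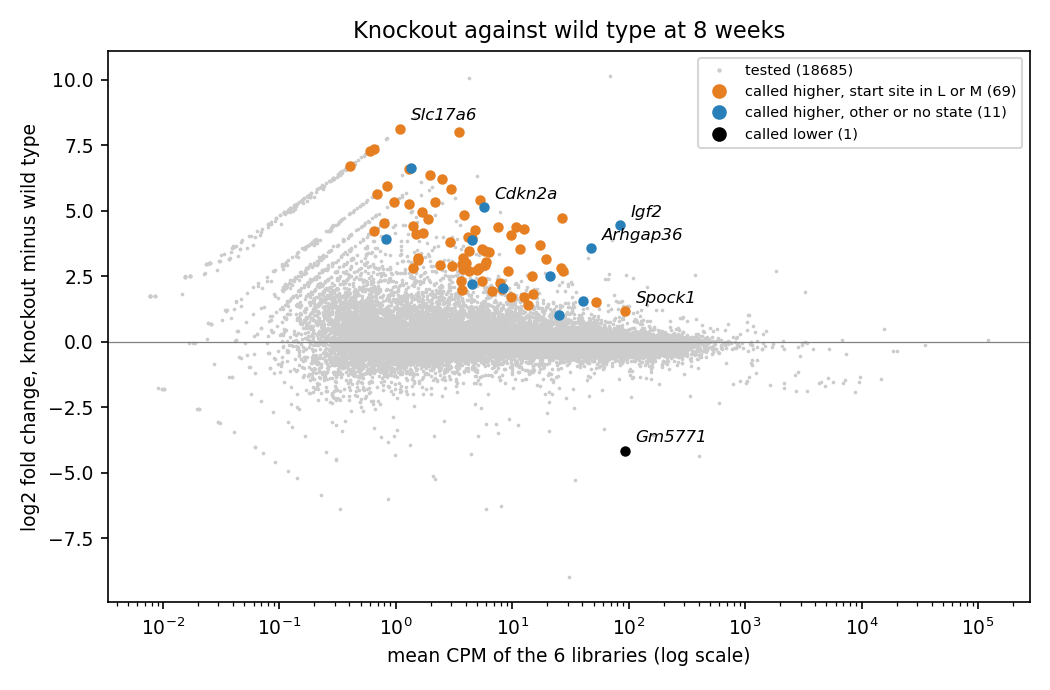
Log2 fold change of knockout over wild type against the mean CPM of the 6 libraries (log scale) for 18685 tested genes. Grey points are all genes, orange points the 69 called higher genes with a bivalent start site (states L or M), blue points the other 11 and the black point Gm5771, the 1 called lower.

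The calls depended on how the spread was estimated. The fit took the spread from 11 libraries, the 6 above and 5 of 25 weeks. With the 6 libraries alone, 11 genes were called, all of them among the 80: Scarf2, Qpct, Astn1, Ppp2r2c, Clstn2, Adgrb1, Nmnat2, Cdkn2a, Penk, Igf2 and Sfmbt2. Leaving out 1 library of 8 weeks at a time gave 135 calls without knockout replicate 1, 40 without knockout replicate 4 and 34 without knockout replicate 5. Without wild-type replicates 1, 3 and 4 in turn the calls were 38, 31 and 18. Leaving out a knockout library of 25 weeks gave 40 or 43, and 17 genes were called each time an 8-week library was left out. With both replicates 1 left out 85 genes were called, 49 of them among the 81. All 81 kept their direction in each of these fits.

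Steep rises were found in transmitter transport and synthesis, which neurons use to load or make glutamate, glycine and GABA. From a list of 24 genes, 21 were tested and 4 were called, all higher, beside 0.428% called higher of all genes tested. The gene lists were written with earlier results of these data known, those of Slc17a6, Slc17a7 and Slc6a5 among them. Counts over the lists therefore describe the calls and are not a test. Slc17a6, the vesicular glutamate transporter VGLUT2, had 3.69, 1.27 and 1.59 CPM in the knockout and no read in any wild-type library. It was at least 40.0-fold higher, taking 3 reads in the 3 wild-type libraries together as the floor (adjusted p = 0.0194, edgeR). Slc17a7, which encodes VGLUT1, had 0.935, 1.73 and 0.972 CPM against no read, at least 21.3-fold higher by the same floor (adjusted p = 0.0402). Both vesicular transporters thus had reads in 3 of 3 knockout libraries and in 0 of 3 wild-type libraries. Slc6a5, the neuronal glycine transporter, had 0.655, 11.0 and 9.19 CPM against 0, 0 and 0.0542 CPM. Its ratio was 329, with a 95% counting interval of 58.7 to 13041 from 1 wild-type read (adjusted p = 0.0442). Gad2, which makes GABA and is a known islet autoantigen, had 0.701, 9.45 and 7.42 CPM against 0.0618, 0.0594 and 0.163 CPM (5.81 ± 0.95 in log2, adjusted p = 0.0307). For Slc6a5 and Gad2, knockout replicate 1 was far below the other knockout libraries yet above wild type. Among the 6 fits that left out an 8-week library, Slc17a6 was called in 2 and Slc17a7, Slc6a5 and Gad2 in 1 each, and the last 3 were not called with acinar level as a covariate.

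Other members of this list were not called. Gad1, the second GABA-synthesising enzyme and present in wild-type islets, had 88.9, 92.1 and 79.3 CPM against 151, 121 and 146 CPM (log2 fold change -0.68 ± 0.21, adjusted p = 0.35, edgeR). Th, the rate-limiting enzyme of dopamine synthesis, had 32.7, 15.0 and 15.0 CPM against 43.2, 34.9 and 37.3 CPM (-0.88 ± 0.31, adjusted p = 0.45). The groups of both genes did not overlap, but neither passed the test. The median log2 fold change of the 21 tested members was 0.35, beside 0.00 over all genes tested.

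A list of neurotransmitter receptors gave 1 call in 34 tested genes, and Gabrd, a GABA receptor subunit that the list does not hold, was called as well. Of the 34 genes 12 were higher at an unadjusted p under 0.05 and none lower, beside 5.85% and 2.02% of all genes tested. Grik3, a kainate receptor subunit, had 31.5, 16.1 and 14.0 CPM against 1.67, 1.07 and 0.217 CPM (log2 fold change 4.39 ± 0.73, adjusted p = 0.0335, edgeR). Here knockout replicate 1 was the highest of the knockout libraries. Chrna4, a nicotinic receptor subunit, had 7.34, 4.63 and 5.21 CPM against 1.85, 0.297 and 0.759 CPM without passing (2.56 ± 0.63, adjusted p = 0.16).

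Beyond the lists, the called higher genes were grouped by what they are known to do after their values had been seen, so the counts below describe the calls and are not a test. Besides Grik3, calls that encode ion channel or receptor subunits included Gabrd, Kcnk9, Kcnt1, Kcnj4, Cacng7 and Crhr1. Kcnt1, a sodium-activated potassium channel, had 16.7, 7.17 and 7.42 CPM against 1.54, 0.773 and 1.73 CPM. Kcnj4, an inward rectifier potassium channel, had 6.22, 10.2 and 10.7 CPM against 1.30, 0.832 and 1.73 CPM, so replicate 1 was the highest knockout library for the first and the lowest for the second. The neuropeptide precursors that rose were 3: Penk (proenkephalin), Pdyn (prodynorphin) and Cartpt, whose peptide is found in islets and brain. Penk had 20.2, 13.3 and 21.7 CPM against 1.30, 0.773 and 1.19 CPM, 16.9 times the wild-type mean. Pdyn had 24.7, 56.7 and 59.97 CPM against 3.95, 8.499 and 9.54 CPM, and replicates 1 were the lowest of their own groups. Cartpt had 7.30, 10.4 and 14.2 CPM against 1.05, 2.08 and 0.704 CPM.

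Genes of neuronal adhesion, migration and axon guidance made up 9 of the calls. Astn1 (astrotactin, which takes part in neuronal migration along glia) and its neighbour Brinp2 lie 5947 bases apart on chromosome 1. Astn1 had 22.2, 26.4 and 23.4 CPM against 1.48, 1.43 and 0.759 CPM (log2 fold change 4.29 ± 0.30, adjusted p = 0.000351, edgeR), and the knockout libraries differed little among themselves. Brinp2 had 10.1, 6.30 and 5.74 CPM against 1.91, 0.832 and 0.650 CPM. Adgrb1, an adhesion receptor of the brain, had 9.31, 8.997 and 8.83 CPM against 0.371, 0.713 and 0.325 CPM (4.25 ± 0.34, adjusted p = 0.000646). Reln, the secreted guidance protein reelin, had 28.6, 29.1 and 18.5 CPM against 3.09, 4.52 and 5.69 CPM. The smallest change among all 80 was that of Cdh22, a cadherin, with 29.0, 36.0 and 36.4 CPM against 16.7, 16.1 and 17.2 CPM (1.02 ± 0.18, adjusted p = 0.0463).

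Some called genes were already well expressed in wild-type islets. Of the called genes the 5 with the highest knockout means were Igf2, Spock1, Arhgap36, Tmem59l and Crmp1. Spock1, a secreted proteoglycan, had 127, 125 and 137 CPM against 58.0, 57.3 and 58.1 CPM, and its wild-type libraries were nearly equal. Tmem59l had 66.1, 70.9 and 94.8 CPM against 19.6, 28.8 and 33.6 CPM. Crmp1, of the collapsin response mediators of axon guidance, had 60.5, 56.6 and 63.1 CPM against 18.2, 21.2 and 22.5 CPM. Arhgap36 had 34.6, 112 and 118 CPM against 3.64, 7.73 and 10.9 CPM, with replicates 1 again lowest in both groups.

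**Figure D3:**
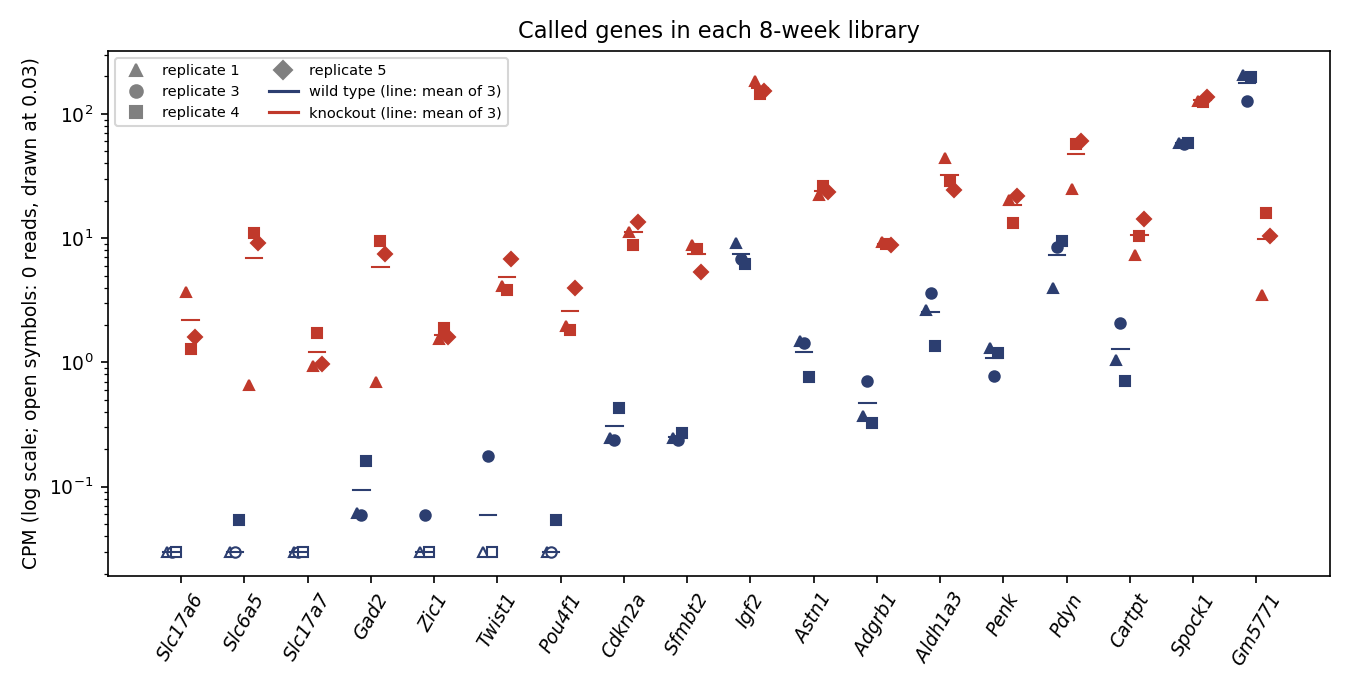
CPM (log scale) of 17 called higher genes and Gm5771 in each library. Blue is wild type, red knockout, the symbol gives the replicate number, short lines are group means and open symbols stand for 0 reads. Knockout replicate 1 lies low for Slc6a5 (0.655 CPM) and Gad2 (0.701 CPM) and high for Slc17a6 (3.69 CPM).

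DNA-binding developmental regulators accounted for 14 of the calls reported here, with fitted log2 fold changes from 1.69 and knockout means of 0.816 to 14.8 CPM. Zic1, a zinc finger factor of the neural plate, had 1.54, 1.88 and 1.59 CPM against 0, 0.0594 and 0 CPM. From 1 wild-type read its ratio was 86.5, with a 95% counting interval of 15.1 to 3454 (adjusted p = 0.00625, edgeR). Twist1, a mesodermal helix-loop-helix factor, had 4.12, 3.81 and 6.80 CPM against 0, 0.178 and 0 CPM (ratio 78.6, interval 26.6 to 384, adjusted p = 0.0307). In the heterozygous libraries of 8 weeks Zic1 had 0, 1.42 and 0 CPM and Twist1 0.209, 1.91 and 0.0689 CPM. Neither gene was called with wild-type and heterozygous islets pooled as the control. Pou4f1, a sensory neuron factor, had 1.96, 1.83 and 3.97 CPM against 0, 0 and 0.0542 CPM (adjusted p = 0.0356). Six3, a forebrain and eye factor, had 1.03, 0.712 and 0.707 CPM and no wild-type read, at least 14.4-fold higher. The knockout level of these 4 genes reached 6.80 CPM at most in any library. A list of homeobox genes other than Hox, which does not hold the whole family, had 71 tested members. Of these 28 were higher and 0 lower at an unadjusted p under 0.05, beside 5.85% and 2.02% of all genes tested. After adjustment 3 passed (Six3, Pou4f1 and Msx1). Of the 87 genes listed, 35 had no read in wild type at 8 weeks. Such a gene enters the test only through other groups and cannot be lower in the knockout. The one-sided count was thus partly fixed in advance. Barhl1 and Shox2 are homeobox genes outside this list and were called too. Barhl1, a neuronal factor, had 12.4, 6.10 and 6.80 CPM against 0.741, 0.178 and 0.704 CPM, and Shox2, a limb and heart factor, had 7.53, 5.59 and 5.12 CPM against 0.741, 1.66 and 1.25 CPM.

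Of 39 Hox genes, which pattern the body axis, 35 were tested and Hoxd8 was called. It had 5.47, 2.90 and 4.24 CPM against 0.618, 0.713 and 0.325 CPM (log2 fold change 2.92 ± 0.38, adjusted p = 0.0103, edgeR). The summed level of all 39 stayed low, at 14.2, 9.45 and 10.7 CPM in the knockout and 5.99, 3.92 and 2.76 CPM in wild type. A list of forkhead, GATA, ZIC, AP-2, T-box and SOX genes, which also holds Twist1 from outside these families, gave 5 calls in 47 tested. Among them were Zic1, Twist1, Foxf1 and Foxf2. Foxf1 had 5.52, 11.5 and 10.4 CPM against 1.67, 1.37 and 2.44 CPM, and Foxf2 1.36, 1.52 and 1.68 CPM against 0, 0.119 and 0.0542 CPM. Of 40 tested Wnt, BMP and Hedgehog genes Gdf10 was called (5.71, 4.78 and 9.36 CPM against 1.11, 0.891 and 0.488 CPM). In this list 12 were higher and none lower at an unadjusted p under 0.05, beside 5.85% and 2.02% of all genes tested. Of its 50 genes, 6 had no wild-type read at 8 weeks and could not be lower in the knockout.

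Twist1, Foxf1, Foxf2, Msx1 and Gdf10 are also expressed by mesenchymal cells, and markers of mesenchymal cells and macrophages had fold changes of one sign. All 14 mesenchymal and stellate cell markers had log2 fold changes above 0, with sums of 239 to 397 CPM in the knockout and 185 to 243 CPM in wild type, though edgeR called 0 and 8 had an unadjusted p under 0.05. Col6a2 had 12.95, 20.7 and 8.57 CPM against 5.68, 4.46 and 5.36 CPM (1.45 ± 0.31, adjusted p = 0.097, edgeR). All 14 macrophage markers were above 0 too, with sums of 107 to 404 CPM against 86.9 to 128 CPM, 0 called by edgeR and 9 with an unadjusted p under 0.05. Over all 18685 genes tested 9415 had log2 fold changes above 0 and 9236 below, and 5.85% were higher at an unadjusted p under 0.05. Aif1 had 1.496, 1.37 and 9.01 CPM against 0.309, 0.475 and 0.163 CPM, and knockout replicate 5 was the highest library of the list. No mesenchymal marker was at 0 in any library. The part of these cells in the results above was not tested.

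Cdkn2a, which encodes the cell cycle inhibitors p16Ink4a and p19Arf, had 11.3, 8.74 and 13.5 CPM against 0.247, 0.238 and 0.434 CPM. The mean was 36.5 times that of wild type (log2 fold change 5.14 ± 0.41, adjusted p = 0.000646, edgeR). The gene spans chromosome 4 from 89274471 to 89294653, and the counts do not separate its transcripts. Heterozygous islets of 8 weeks had 0.418, 0.222 and 0.483 CPM, far below the knockout. The other 6 cyclin-dependent kinase inhibitors were not called. Cdkn1c (p57) had 5.66, 4.78 and 5.21 CPM against 2.16, 1.90 and 2.06 CPM (1.35 ± 0.41, adjusted p = 0.32), and Cdkn1b (p27) 72.5, 56.8 and 54.4 CPM against 74.8, 100 and 85.2 CPM (-0.50 ± 0.21, adjusted p = 0.60). Of 21 cell cycle genes edgeR called 0, and 0 had an unadjusted p under 0.05.

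Igf2, an imprinted fetal growth factor, was the called gene with the highest knockout level. It had 185, 145 and 154 CPM against 9.14, 6.83 and 6.18 CPM, 21.8 times the wild-type mean (log2 fold change 4.45 ± 0.26, adjusted p = 8.59e-05, edgeR). Igf2 lies on chromosome 7 from 142650766 to 142666816. Heterozygous islets had 4.05, 5.42 and 3.79 CPM, all below the knockout libraries. Igf2os, on the opposite strand of Igf2, also rose, with 4.86, 4.17 and 3.62 CPM against 0.124, 0 and 0.163 CPM. Use of strand in counting is not stated, so reads of Igf2 and Igf2os cannot be told apart where they overlap. Of 23 tested genes on a list of imprinted genes Igf2 was the 1 called. The list does not hold every imprinted gene, and Igf2os and Sfmbt2, which were called too, are outside it. Dlk1, a Notch ligand homologue, had 8.51, 43.4 and 47.9 CPM against 3.46, 4.28 and 8.34 CPM (2.63 ± 0.58, adjusted p = 0.11), and Ndn 67.3, 60.6 and 75.7 CPM against 36.1, 41.2 and 36.6 CPM (0.84 ± 0.23, adjusted p = 0.25).

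Aldh1a3, a retinaldehyde dehydrogenase used as a marker of dedifferentiated β cells, had 44.0, 29.0 and 24.3 CPM against 2.66, 3.63 and 1.35 CPM. It rose 12.7-fold in the mean (log2 fold change 3.67 ± 0.43, adjusted p = 0.00625, edgeR) and was called whichever 8-week library was left out. It was the 1 called gene of 9 tested progenitor and dedifferentiation markers. Sfmbt2, a Polycomb group gene, and Epop, a PRC2 cofactor, were called outside the lists of PRC2 and PRC1 subunits, in which edgeR called 0 of 11 and 0 of 19. Sfmbt2 rose, with 8.89, 8.23 and 5.30 CPM against 0.247, 0.238 and 0.271 CPM (4.85 ± 0.52, adjusted p = 0.00403), and so did Epop, with 7.95, 16.3 and 18.8 CPM against 0.371, 1.25 and 0.434 CPM. The other rises among the 20 steepest were those of Tceal6, Gm10419, Gm28050, Tchh, Gm42517, Tcfl5, Mir124a-1hg, Iqsec3 and Raet1e. Mir124a-1hg hosts the neuronal microRNA miR-124 and had 5.47, 2.03 and 2.21 CPM against 0.247, 0 and 0.0542 CPM. Tceal6 has a close relative, Tceal5, Gm10419 overlaps Gm42517 on the opposite strand, and Raet1e spans several relatives, so the counts of these genes are uncertain.

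Among mature β cell genes no change passed the test. The 8 transcription factors and markers of the list all had log2 fold changes below 0, with a median of -0.36, 0 called by edgeR and 0 with an unadjusted p under 0.05. Nkx6-1 had 348, 106 and 105 CPM against 344, 197 and 241 CPM (-0.48 ± 0.45, adjusted p = 0.89, edgeR). Pdx1 had 89.1, 47.1 and 48.6 CPM against 114, 74.1 and 83.3 CPM (-0.55 ± 0.28, adjusted p = 0.70). Ucn3, a marker of mature β cells, had 215, 124 and 163 CPM against 324, 203 and 205 CPM (-0.54 ± 0.27, adjusted p = 0.69). In all 3 genes replicate 1 was the highest of its own group, and the genotypes overlapped. Knockout replicates 4 and 5 were both below the 3 wild-type libraries for each of them.

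The insulin genes overlapped between the genotypes. The log2 fold change was -0.14 ± 0.57 for Ins1 and 0.08 ± 0.74 for Ins2 (adjusted p = 0.98 and 0.99, edgeR), and their near-identical sequences make the split between them uncertain. Of 28 insulin secretion genes edgeR called 0, with 1 higher and 3 lower at an unadjusted p under 0.05. Both signs given for Ins1 and Ins2 turned under other settings. Pcsk1, the prohormone convertase that begins proinsulin processing, had 144, 164 and 134 CPM against 249, 324 and 327 CPM (-1.03 ± 0.28, adjusted p = 0.22). Trpm5, a calcium-activated channel, had 48.4, 32.9 and 44.9 CPM against 101, 58.7 and 86.4 CPM (-0.96 ± 0.33, adjusted p = 0.42). Both were lower in every knockout library without passing the test. Gcg, Sst and Ppy, the hormones of the other islet cells, had log2 fold changes of -0.35, 0.04 and -0.01 and overlapping groups.

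**Figure D4:**
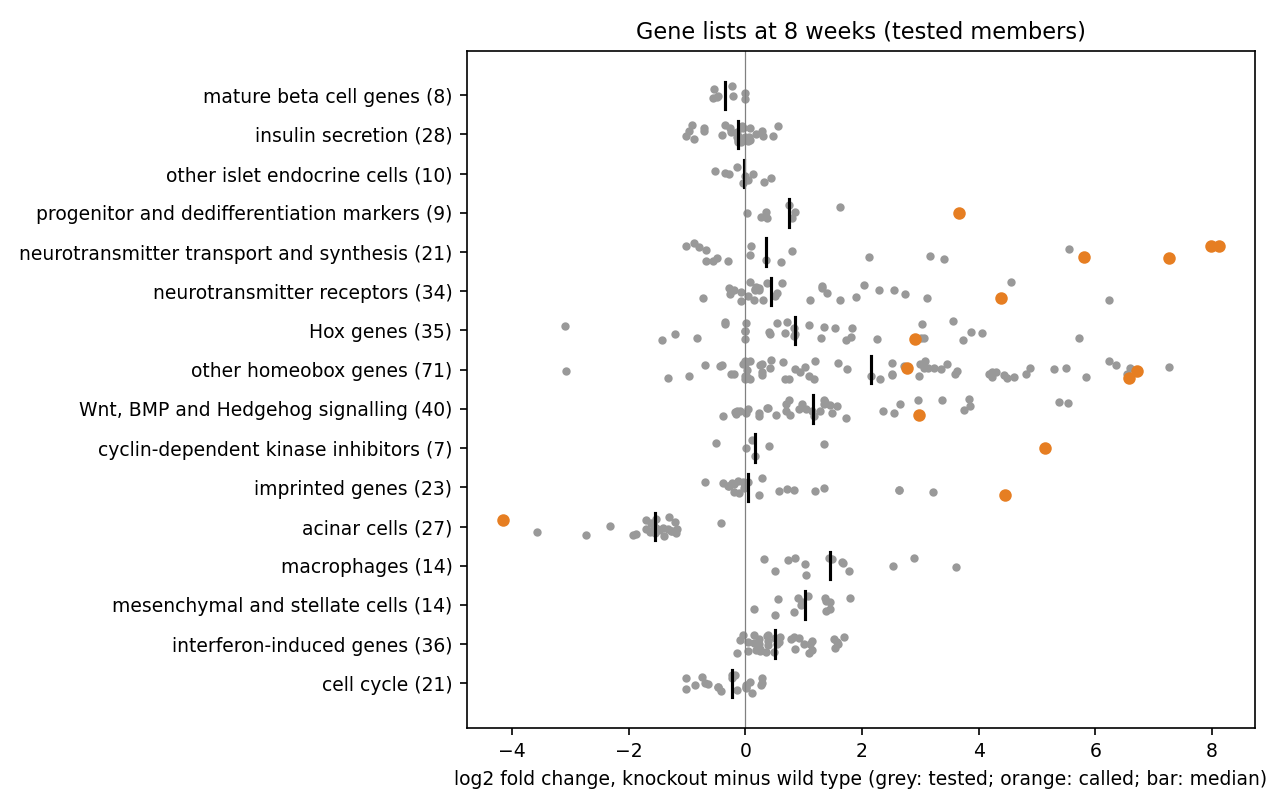
Log2 fold change (knockout over wild type) of every tested member of 16 gene lists. Each grey point is a gene, orange points are called genes and black bars are medians. The number of tested members follows each name. Mature β cell genes have a median of -0.36 and homeobox genes outside the Hox clusters of 2.15. Of the 87 such homeobox genes listed, 35 had no wild-type read and could not lie below 0.

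The single called lower gene was Gm5771, a trypsinogen, with 3.51, 15.8 and 10.4 CPM against 207, 126 and 198 CPM (log2 fold change -4.16 ± 0.68, adjusted p = 0.0307, edgeR). Related trypsinogens had values on the same side: Prss3 had 14.2, 36.1 and 24.7 CPM against 402, 213 and 273 CPM (-3.57 ± 0.70, adjusted p = 0.0728), Gm10334 had a log2 fold change of -3.41 and Prss1 of -3.14, and none of these passed. The copies are near-identical, so how reads were split among them is uncertain. Of 27 acinar genes all had log2 fold changes below 0, with a median of -1.54 and 2 members whose knockout libraries all lay below wild type (4.78% of all genes tested did), and the sums were 37674 to 63118 CPM in the knockout and 43285 to 304398 CPM in wild type. The Gm5771 call was kept in 1 of the 6 fits that left out an 8-week library. Heterozygous islets, which were no part of the test, had 10.3, 3.07 and 10.5 CPM of Gm5771, as low as the knockout. Gm5771 was not called with acinar level as a covariate, nor with wild-type and heterozygous islets pooled as the control. The part of acinar tissue in this call was not tested further. Msln, a mesothelial surface protein, had 22.7, 10.4 and 11.3 CPM against 46.0, 40.8 and 68.0 CPM (-1.80 ± 0.54, adjusted p = 0.31).

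Genes were then read against the deposited segmentation of the wild-type islet genome, which covers the autosomes and holds 24 chromatin state letters, A to X. States A and B mark active start sites, L and M bivalent promoters with more H3K4me3 or more H3K27me3, and N to P other Polycomb chromatin. Of the 80 called higher genes 76 had a state at the start site, and 69 of these (90.8%) lay in L or M, 46 in L and 23 in M. Among all tested genes with a state, L or M held 19%. Of the genes tested in L, 1.83% were called higher, in M 2.55% and in A 0.0153%, beside 0.423% over all states. The states were mapped in wild-type islets and hold no spread between animals, and a gene that is silent in wild type could enter the test through its knockout level alone.

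Among the same tested genes, every knockout library lay above every wild-type library for 17.8% of the tested genes in L or M and for 6.64% over all states, whereas the opposite order held for 1.70% and 4.70%. In state A the order ran the other way, with 1.84% above and 6.77% below. The median log2 fold change was 0.64 in M, 0.31 in L, 0.42 in N and -0.10 in A, and the highest was 0.90 over 148 tested genes of T, a state outside the bivalent ones. In T, however, every knockout library lay above every wild-type library for 3.38% of tested genes. Counted genes of T at 1 CPM or more numbered 38, 76 and 39 in the knockout and 39, 38 and 38 in wild type, so knockout replicate 4 stood apart. Of 1877 counted genes in M, tested or not, 467, 475 and 444 reached 1 CPM in the knockout libraries and 427, 364 and 302 in wild type. In L, with 3250 counted genes, 2003, 1957 and 1863 did so in the knockout and 1868, 1746 and 1671 in wild type, and these groups overlapped. Knockout replicate 1 had reads in 25402 genes, the most of the 6 libraries, so its count of detected genes was high in other states too.

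**Figure D5:**
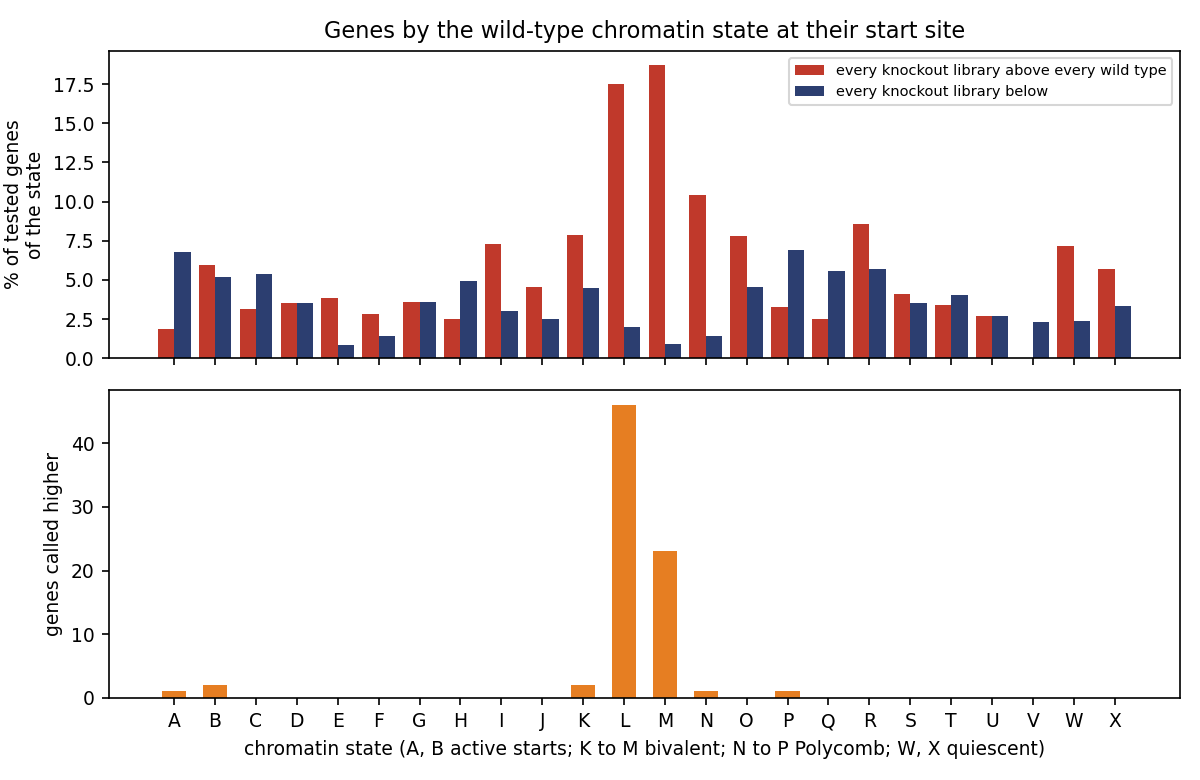
Upper panel, percent of the tested genes of each chromatin state whose knockout libraries all lay above (red) or all below (blue) the wild-type libraries. Lower panel, number of called higher genes by state. States L and M reach 17.5% and 18.7% above and hold 46 and 23 of the called genes.

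The called genes outside L and M were Qpct and Rasl10b in K, another bivalent state, Cdkn2a and Cdh22 in B, Crmp1 in A, Igf2 in N and Dmrta1 in P. Read at every annotated start, Cdkn2a had a start in M at 89282192 besides the one in B at 89294653, and Igf2 had internal starts in L and M. With all annotated starts counted, 75 of the called higher genes had at least 1 in L or M, 97.4% of those with a start in a state, against 21.2% of such tested genes. By the state with the most bases across the gene body, 32.5% lay in L or M. States K to O held 72 of the 76 start sites.

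Promoters of 4 called genes are shown because each gene rose while their start sites lay in a bivalent state (Zic1 and Slc17a6), an active one (Cdkn2a) and another Polycomb state (Igf2). Each window runs from 250 bases before to 50 bases after the RefSeq start on GRCm38.p6 and is written 5′ to 3′ on the strand of the gene, with CpG dinucleotides in capitals. CpG-rich promoters are the usual seat of bivalent chromatin. Zic1 is on the minus strand at chr9:91365719-91366018, in M, with 31 CpG. Slc17a6 is on the plus strand at chr7:51621580-51621879, with 8 CpG. Its state, M, was read at its Gencode start, 51622006, which lies outside this window. Cdkn2a is on the minus strand at chr4:89294570-89294869, in B, with 45. Igf2 is on the minus strand at chr7:142666767-142667066, in N, with 2.
Zic1: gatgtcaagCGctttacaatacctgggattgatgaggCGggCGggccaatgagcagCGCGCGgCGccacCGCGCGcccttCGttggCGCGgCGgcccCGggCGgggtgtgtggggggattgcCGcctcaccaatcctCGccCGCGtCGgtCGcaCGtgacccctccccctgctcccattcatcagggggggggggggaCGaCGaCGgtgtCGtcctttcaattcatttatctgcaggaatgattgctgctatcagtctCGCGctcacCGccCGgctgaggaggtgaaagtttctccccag
Slc17a6: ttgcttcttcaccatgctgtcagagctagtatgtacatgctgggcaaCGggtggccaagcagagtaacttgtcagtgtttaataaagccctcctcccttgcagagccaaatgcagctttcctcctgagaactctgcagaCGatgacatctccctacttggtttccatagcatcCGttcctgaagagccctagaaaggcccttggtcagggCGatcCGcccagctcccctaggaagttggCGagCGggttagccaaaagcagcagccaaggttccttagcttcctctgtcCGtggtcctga
Cdkn2a: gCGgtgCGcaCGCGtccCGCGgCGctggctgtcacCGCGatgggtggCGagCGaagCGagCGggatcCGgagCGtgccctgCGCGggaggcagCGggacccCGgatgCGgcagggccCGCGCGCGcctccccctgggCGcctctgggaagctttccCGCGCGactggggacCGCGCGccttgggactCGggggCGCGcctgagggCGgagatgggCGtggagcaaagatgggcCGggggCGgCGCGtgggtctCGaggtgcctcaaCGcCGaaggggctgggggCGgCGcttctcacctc
Igf2: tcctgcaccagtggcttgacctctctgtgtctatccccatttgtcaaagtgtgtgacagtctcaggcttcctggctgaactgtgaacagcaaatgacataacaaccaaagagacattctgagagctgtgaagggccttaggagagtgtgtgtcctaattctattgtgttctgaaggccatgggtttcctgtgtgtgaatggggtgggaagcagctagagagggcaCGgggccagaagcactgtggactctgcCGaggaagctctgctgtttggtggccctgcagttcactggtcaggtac
Igf2, with 2 CpG in its window, and Cdkn2a, with 45, both rose over 20-fold. Both genes have other annotated starts, and the counts do not show which start rose. How the number of CpG goes with the rise was not tested. A RefSeq window was found for 62 of the 80 genes, too few to compare the whole set with other genes.

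The interferon difference between libraries ran within both genotypes. Over 36 interferon-induced genes edgeR called 0, 1 had an unadjusted p under 0.05, and the median log2 fold change was 0.50. For Ifit1 the fitted difference was 0.59 ± 1.59 in log2 (adjusted p = 0.97, edgeR), and the difference between replicates 1 and the other libraries exceeded that between genotypes. Among libraries other than replicates 1, the sums were 10665 and 11703 CPM in the knockout and 7472 and 8303 CPM in wild type. Called genes were not uniformly lower or higher in knockout replicate 1. It was the lowest knockout library for 30 of the 80 called higher genes and the highest for 36. It lay over 2-fold below both others for 6 (Slc6a5, Gad2, Iqsec3, Epop, Arhgap36 and Pdyn) and over 2-fold above both for 6 (Slc17a6, Mir124a-1hg, Miat, Hrasls, Kcnt1 and Col8a2). Over the 15070 tested genes with a knockout mean of 1 CPM or more, these shares were 11.3% and 9.69%. With the mean level of the interferon-induced genes as a covariate, 188 genes were called and all 81 were among them.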

How the data were processed

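Bulk RNA-seq counts of whole islets were analysed for 3 wild-type and 3 βEedKO libraries of 8 weeks, with 3 heterozygous libraries of 8 weeks given as levels. The fit also held 5 libraries of 25 weeks, which served to estimate the spread and entered the filter that chose the genes tested. With the 6 libraries of 8 weeks alone 16037 genes were tested. The authors deposited raw read counts per gene, for which they had aligned reads to GRCm38 (TopHat v2.0.13) and assigned them to Gencode M9 genes (featureCounts, Subread 1.5.0-p1). Libraries were made with a TruSeq RNA v2 kit. Use of strand is not given in the sources used here, so reads of overlapping genes on opposite strands may be mixed. The authors deposited the chromatin states as letters per segment, with no measured level. Counting intervals and floors cover counting error only. Heterozygous libraries of 25 weeks were not used here.

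The test was edgeR 4.0.16 under R 4.3.3 (TMM scaling, filterByExpr by group, quasi-likelihood test of KO against WT at 8 weeks in 1 fit of 11 libraries, Benjamini-Hochberg adjustment over 18685 genes). The SE of a log2 fold change is its size divided by the square root of F. Gene names, positions and start sites came from Gencode M21, a later release on the same build, which matched 47310 of 47937 counted genes. Promoters came from RefSeq. DESeq2 1.42.0 and other scalings, filters, covariates, controls and left-out libraries were alternatives. On simulated counts for 18685 genes in this comparison, 50 of 50 genes changed 16-fold, 44 of 50 changed 8-fold, 31 of 50 changed 4-fold and 1 of 50 changed 2-fold were called, with 5 false calls among 131. The simulation changed only genes with a mean of 1 CPM or more. Of the 80 called higher genes, 45 had a wild-type mean under 1 CPM. The simulated spread followed a trend with expression level, without the differences between replicates 1 and the other libraries. Recovery and false calls were thus not tested for genes of low level or for the spread of the real libraries.

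Named genes are the 20 largest rises among called higher genes with at least 1 CPM in a group mean and no overlap, every called lower gene, and the 5 called genes with the highest knockout mean. To these were added the 5 largest falls among genes of at least 10 CPM in wild type, Eed, Ezh1, Ezh2, Suz12, 8 mature β cell genes, the islet hormones, Ifit1, Cdkn2a and, for each list, called members and up to 3 members each by smallest p and by level. Other called genes (such as Penk, Pdyn, Cartpt and Astn1) were named after their values were seen. The comparison, its lists and its tests were chosen with earlier results of these data known. Some genes that met the rule are not reported here. Libraries held islets of 1 to 2 animals, except the 25-week knockout libraries (replicates 2 and 3), which pooled more animals each. The p-values measure the spread between all 11 libraries of the fit, so they mix pools of different size.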

Additional observations from a re-analysis of the deposited data

Results flagged for a closer look

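The knockout effect at 25 weeks was set against that at 8 weeks in the same fit, as a test of the difference (edgeR, Benjamini-Hochberg over 18685 genes), and differed for 37 genes. Among the genes named above it differed for 8, of which 2, Barhl1 and Gm5771, were called at 8 weeks. Barhl1, a neuronal homeobox gene, had a log2 fold change of 3.94 at 8 weeks and -1.17 at 25 weeks, a difference of -5.12 (adjusted p = 0.0348). Its mean at 25 weeks was 8.12 CPM in wild type and 3.60 CPM in the knockout. For 3 genes that were not called at 8 weeks the fold change was lower at 25 weeks. The difference was -4.72 for Ucn3 (adjusted p = 0.00466), -4.63 for Trpm5 (adjusted p = 0.00614) and -2.72 for Gad1 (adjusted p = 0.00967).

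The other 4 were trypsinogens, with values below wild type at 8 weeks and above it at 25 weeks. Gm5771 moved from -4.16 to 6.64, a difference of 10.8 (adjusted p = 0.00466). The difference was 10.9 for Prss1 (adjusted p = 0.00373), 8.72 for Gm10334 (adjusted p = 0.00579) and 6.99 for Prss3 (adjusted p = 0.0273). Acinar content varied between the 8-week libraries of one genotype as well, and its part in these differences was not tested. Groups of 3 libraries are too small for a test of single outlying libraries, and the 25-week knockout held replicates 2 and 3 alone.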

How the results depend on the processing

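All 81 called genes kept their direction under every alternative, but the number of calls moved. It was 137 without a filter on low counts, 393 with DESeq2 (358 higher, 35 lower), 423 against a joint control of both wild-type and heterozygous islets (374 higher, 49 lower), 188 with an interferon covariate, 49 with an acinar covariate and 11 with the 6 libraries of 8 weeks alone. Scaling by library size alone shifted the median log2 fold change of all genes to 0.20 and called 66 higher and 4 lower. Leaving out 1 library at a time gave 18 to 135 calls. With the replicate block edgeR called 0 genes (1126 at an unadjusted p under 0.05). Numbers 1 and 4 occur in both genotypes, and the deviations of these pairs from their group means correlated at 0.46 and 0.166, but those of knockout replicate 5 and wild-type replicate 3 at 0.452, so the numbers are not shown to mark pairs. Eed at 8 weeks passed with DESeq2 (-1.02, adjusted p = 0.00144) and with the interferon covariate (-1.04, adjusted p = 0.0459). It did not pass elsewhere, and ranged from -1.18 to -0.93 with 1 library left out. The share of called higher genes with a bivalent start site was 70.6% to 95.2% under these alternatives. It was 32.5% for the state over the gene body, in place of that at the start site. Fold changes that changed sign were those of Ifit1 at 8 weeks (-0.029 with the replicate block, -0.51 with the interferon covariate), Ins1 at 8 weeks (0.064 with library size alone, 0.057 without knockout replicate 4, and -0.30 to 0.057 over the left-out libraries) and Ins2 at 8 weeks (-0.11 without knockout replicate 5, -0.086 without wild-type replicate 4, and -0.11 to 0.26 over the left-out libraries). With 3 libraries a group, changes of 2-fold were rarely called on the simulated counts. The cause of these shifts was not tested.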

Other observations

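Among PRC1 subunits, which read the mark laid down by PRC2, edgeR called 0 of 19. Cbx8 and Bmi1 had every knockout library above every wild-type library and an unadjusted p under 0.05 without passing the test. Cbx8, a chromobox subunit, had 13.8, 10.3 and 11.4 CPM against 7.72, 4.81 and 5.31 CPM (log2 fold change 0.99 ± 0.42, adjusted p = 0.59, edgeR). Bmi1, which represses Cdkn2a in many cell types, had 79.9, 94.2 and 101 CPM against 50.8, 78.0 and 67.7 CPM (adjusted p = 0.59). In heterozygous islets of 8 weeks Cbx8 had 19.8, 15.6 and 15.5 CPM, above every knockout library. Bmi1 had 59.0, 59.2 and 60.1 CPM there, within the wild-type range. Of 16 germline genes 5 were tested, and edgeR called 0, with 0 at an unadjusted p under 0.05. The 14 disallowed genes, which β cells normally keep low, had a median log2 fold change of 0.53, with 12 above 0, 0 called by edgeR and 3 with an unadjusted p under 0.05. Pdgfra, of this list, had 1.40, 4.12 and 3.003 CPM against 0.371, 0.594 and 0.488 CPM (2.53 ± 0.53, adjusted p = 0.0881). In heterozygous islets of 8 weeks Pdgfra had 0.488, 4.13 and 0.758 CPM. It is also a marker of mesenchymal cells, whose 14 listed markers all had log2 fold changes above 0, and the part of such cells in these values was not tested.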
